A study of Mus musculus with 12 samples.

Results

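The Hox genes of the 4 mouse clusters were followed in smooth muscle cells (SMCs) along the thoracic aorta. Members were all genes of the count matrix whose Ensembl identifier belongs to a symbol made of Hox, a cluster letter and a paralog number, which gave 39 of 52636 genes. The Hoxa cluster contributed 11 members on chromosome 6, Hoxb 10 on chromosome 11, Hoxc 9 on chromosome 15 and Hoxd 9 on chromosome 2 (GRCm38). Levels entered neither this rule nor the order, but the members were chosen with earlier results of these data known.

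The 12 libraries were bulk RNA-seq of GFP+ SMCs sorted from ascending aorta with arch, or from descending thoracic aorta, of C57BL/6J-background mice, with 3 libraries in each of 4 groups. GFPiSMC mice carried Myh11-CreERT2, which is active in Myh11-expressing cells after tamoxifen, and the mT/mG reporter that turns recombined cells green. Tgfbr1/2iSMCKO mice carried in addition floxed alleles of both *Tgfbr1* and *Tgfbr2*, so that recombined SMCs lose the type I and type II TGF-β receptors. All mice were male, because the Cre transgene sits on the Y chromosome, were given tamoxifen for 5 days (2 mg/d from 11 weeks of age by the study's methods for mice studied 1 week later, while the labels also list 1 mg/d from 4 weeks) and were studied at 12 weeks of age. Groups therefore shared the Cre, the reporter and tamoxifen, and GFPiSMC cells without floxed alleles were the controls. Between 9208 and 20000 cells were sorted per library, and total counts ran from 20467027 to 31392396. No source used here says whether libraries with the same number came from 1 mouse, nor that each library was a separate mouse, so p-values measure the spread between these libraries.

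Hox genes encode transcription factors that bind DNA through a homeodomain, and they tell cells where they lie between head and tail. Genes at the 3′ end of a cluster, with low paralog numbers, are switched on in anterior regions of the embryo, and genes toward the 5′ end, with high numbers, in progressively more posterior ones. SMCs of the ascending aorta and arch descend largely from cardiac neural crest and the heart-forming mesoderm, whereas those of the descending aorta descend from paraxial mesoderm. Adult vascular SMCs are known to keep part of the Hox pattern of their place of origin. The comparison asked how far members differed between the segments, and whether the difference was altered when TGF-β receptors were lost.

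Promoter windows are given for 3 members that were higher in the descending aorta (*Hoxa7*, *Hoxa9*, *Hoxb8*) and for *Hoxa3*, abundant in both segments. They are RefSeq windows from 250 bases before to 50 after the annotated start on GRCm38.p6, written in the direction of transcription, with capitals marking TTTATG, the core bound by Cdx factors, or TGATNNAT, a core for Pbx-Hox pairs, on either strand. The *Hoxa7* window was chr6:52218524-52218823 (minus), the *Hoxa9* window chr6:52227321-52227620 (minus), the *Hoxb8* window chr11:96281655-96281954 (plus) and the *Hoxa3* window chr6:52213018-52213317 (minus). RefSeq and GENCODE placed the same start for *Hoxb8*, but their starts lay 3281 bases apart for *Hoxa7*, 3719 for *Hoxa9* and 269 for *Hoxa3*.
Hoxa7: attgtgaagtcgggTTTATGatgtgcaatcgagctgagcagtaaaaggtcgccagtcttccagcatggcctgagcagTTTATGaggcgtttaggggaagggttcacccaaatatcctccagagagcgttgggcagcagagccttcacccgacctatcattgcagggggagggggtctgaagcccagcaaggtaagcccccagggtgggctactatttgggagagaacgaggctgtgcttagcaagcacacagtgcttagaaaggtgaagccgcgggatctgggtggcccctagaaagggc
Hoxa9: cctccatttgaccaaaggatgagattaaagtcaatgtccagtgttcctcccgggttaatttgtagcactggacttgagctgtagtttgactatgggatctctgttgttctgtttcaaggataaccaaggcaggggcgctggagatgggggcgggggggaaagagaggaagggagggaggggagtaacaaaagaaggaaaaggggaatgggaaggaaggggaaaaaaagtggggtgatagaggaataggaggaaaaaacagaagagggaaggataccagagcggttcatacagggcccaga
Hoxb8: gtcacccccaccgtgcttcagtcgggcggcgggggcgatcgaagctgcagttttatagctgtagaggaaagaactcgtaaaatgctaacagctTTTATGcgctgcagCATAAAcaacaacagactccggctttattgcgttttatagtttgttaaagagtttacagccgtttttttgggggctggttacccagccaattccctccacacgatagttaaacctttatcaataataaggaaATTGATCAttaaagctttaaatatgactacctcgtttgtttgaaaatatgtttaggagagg
Hoxa3: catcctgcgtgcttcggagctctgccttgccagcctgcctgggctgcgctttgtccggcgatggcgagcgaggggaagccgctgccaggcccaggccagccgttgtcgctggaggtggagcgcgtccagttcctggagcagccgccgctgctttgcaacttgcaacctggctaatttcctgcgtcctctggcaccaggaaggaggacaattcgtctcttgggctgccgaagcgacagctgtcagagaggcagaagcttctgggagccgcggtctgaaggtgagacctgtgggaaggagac

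The *Hoxa7* window held TTTATG 2 times. The *Hoxb8* window held it 2 times, once on each strand, and TGATNNAT once on the other strand, with no overlap between the motifs. Neither motif was found in the windows of *Hoxa9* and *Hoxa3*. Among all 32851 promoter windows, 11.9% held TTTATG and 8.85% held TGATNNAT. Windows were at hand for 22 members, of which 5 held TTTATG (*Hoxa7*, *Hoxb8*, *Hoxd3*, *Hoxd4*, *Hoxd11*) and 4 held TGATNNAT (*Hoxa2*, *Hoxb1*, *Hoxb8*, *Hoxd11*). These matches are descriptions of letters in the windows.

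The homeobox is the part of these genes that is most alike and in which reads could be assigned to the wrong member. The longest run of identical aligned bases between any 2 of the 39 homeoboxes was 52 bases. Stretches of 50 bases shared between members of different clusters were found in only 4 genes (*Hoxa6* with *Hoxb4*, and *Hoxb9* with *Hoxc9*), and made up at most 0.36% of a gene's stretches. Within clusters, *Hoxd3* shared 62.3% of its exon bases with *Hoxd4* and Gm28230 on its strand, and *Hoxc10* shared 8.7% with *Hoxc5*, so counts of these pairs are uncertain. The library kit does not mark strand, and 20.4% of *Hoxa7* exon bases overlapped the antisense RNA *Hoxaas3*, 52.9% of *Hoxb3* and 27.3% of *Hoxb2* overlapped *Hoxb3os*, and 25.4% of *Hoxa3* overlapped antisense genes. Reads from those stretches cannot be assigned to 1 strand.

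Aortic SMCs expressed mainly Hox genes of paralog groups 1 to 10. Each of the 39 members had at least 1 count in some library, 27 passed the count filter, and 18 averaged at least 1 CPM (counts scaled to a library total of 1000000 after TMM normalisation). The Hoxa and Hoxb clusters together accounted for most of the summed Hox level. In GFPiSMC ascending/arch libraries the Hoxa share was 56.7% ± 2.77 (SD, n = 3) and the Hoxb share 39.3% ± 3.16 of all Hox CPM. Hoxd genes summed to between 1.12 and 3.12 CPM in ascending/arch and between 0.911 and 2.89 CPM in descending libraries, overlapping ranges. The 12 members below the filter were *Hoxa11*, *Hoxb1*, *Hoxb13*, *Hoxc11*, *Hoxc12*, *Hoxc13*, *Hoxd4* and *Hoxd9* to *Hoxd13*, with 0 to 24 counts in a library and 6 to 65 over all 12, and they were left out of the test. With a filter of 1 count they were tested, and none was called.

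Per kilobase of exon, a scale that allows levels to be compared between genes, the order changed between segments. In GFPiSMC ascending/arch libraries the highest mean levels were those of *Hoxa3* (5.81 CPM per kb), *Hoxa4* (5.13), *Hoxb5* (4.89) and *Hoxa2* (4.70), and these levels were not tested against each other. In GFPiSMC descending libraries *Hoxb7* (35.6) and *Hoxa7* (30.0) led, followed by *Hoxb6* (14.6) and *Hoxb5* (11.4). Tgfbr1/2iSMCKO descending libraries had the same 4 genes in the same order, at 38.7, 24.7, 22.1 and 14.0 CPM per kb. The ascending/arch order differed between genotypes. In Tgfbr1/2iSMCKO ascending/arch libraries *Hoxa2* (10.1 CPM per kb) and *Hoxb7* (8.02) led, and *Hoxb5* and *Hoxb6* also lay above *Hoxa3* (6.12). This difference in order was not tested. In bulk RNA, fewer cells of a kind and less RNA per cell cannot be told apart.

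Summed over all members, Hox RNA was 142, 136 and 106 CPM in GFPiSMC ascending/arch and 324, 318 and 282 CPM in GFPiSMC descending libraries. In Tgfbr1/2iSMCKO it was 137, 155 and 189.6 CPM in ascending/arch and 347, 293 and 381 CPM in descending libraries. Every descending library was above every ascending/arch library. Sums over groups 1 to 4 overlapped, with 71.5 to 103 CPM in ascending/arch and 61.4 to 94.6 CPM in descending libraries. Groups 7 to 10 ran from 11.2 to 35.0 CPM in ascending/arch and from 129 to 175 CPM in descending libraries, without overlap. Their share of all Hox CPM was 11.8% ± 1.12 against 53.5% ± 1.38 (SD, n = 3 each) in GFPiSMC. The corresponding shares in Tgfbr1/2iSMCKO were 16.3% ± 6.10 and 43.9% ± 1.42. Group 7 alone, *Hoxa7* with *Hoxb7*, made up 45.7% ± 3.99 of Hox CPM in the descending aorta of GFPiSMC and 38.4% ± 0.821 in that of Tgfbr1/2iSMCKO.

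**Figure D1:**
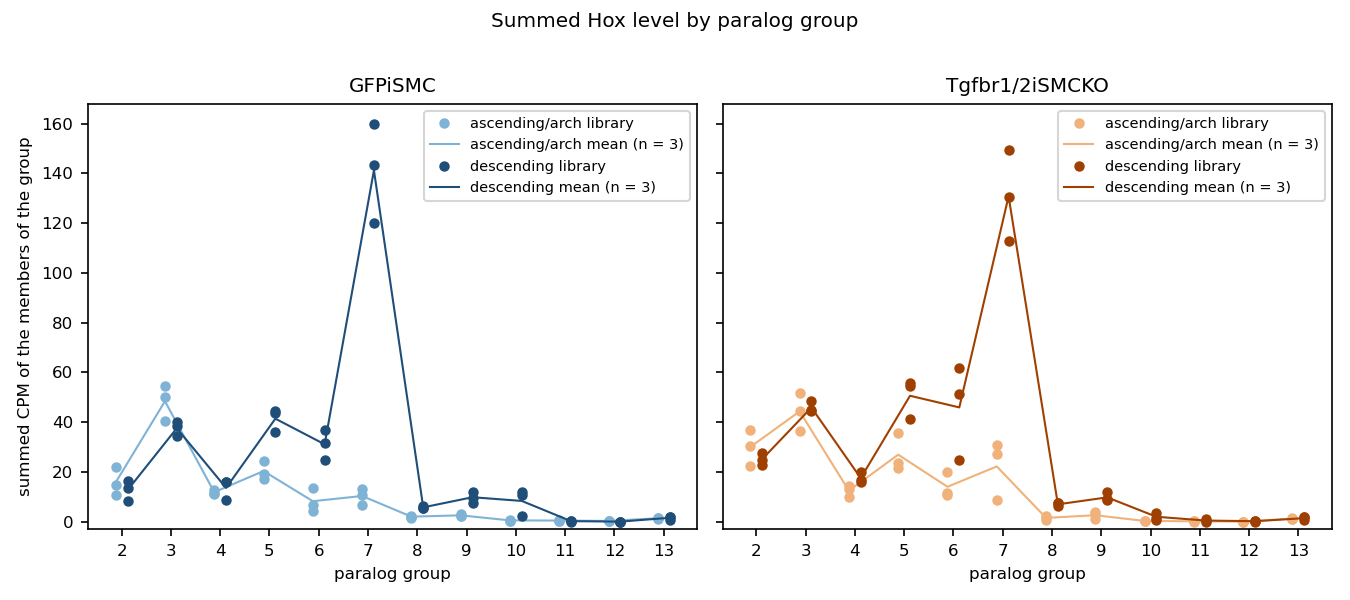
Summed level of the Hox genes of each paralog group, in CPM (vertical axis) against paralog group 2 to 13 (horizontal axis), for GFPiSMC (left) and Tgfbr1/2iSMCKO (right); points are libraries and lines join the means of 3 libraries. Descending libraries peak at group 7, between 113 and 159.8 CPM, where ascending/arch libraries have 6.77 to 31.0 CPM.

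Over both genotypes, 9 of the 27 tested members were higher in the descending than in the ascending/arch aorta and none was lower. A gene was called with an adjusted p under 0.05 and a difference beyond 2-fold in edgeR's quasi-likelihood test, adjusted over 22320 genes by Benjamini-Hochberg. By the same rule 0.188% of all tested genes were higher in the descending aorta and 0.556% were lower. The 9 were *Hoxa7*, *Hoxa9* and *Hoxa10*, *Hoxb5* to *Hoxb8*, *Hoxc4* and *Hoxc6*. At an unadjusted p under 0.05 there were 13 members higher and 1 lower, against 2.23% and 3.64% of all tested genes. The median log2 fold change was 1.11 over the 27 members and 0.0035 over all tested genes. On their ascending/arch libraries alone, *Hoxa6*, *Hoxa10*, *Hoxc6*, *Hoxc8*, *Hoxc9* and *Hoxc10* would not have passed the count filter. The filter thus favoured a higher descending level for them, here and in the comparisons below.

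Taken over groups 1 to 4, 5 and 6, and 7 to 10, the median difference was larger in each higher set. By single group the difference did not rise steadily. Mean summed CPM in GFPiSMC was 13.7, 2.88, 3.88 and 16.8 times higher in descending libraries for groups 7, 8, 9 and 10. The ratios in Tgfbr1/2iSMCKO were 5.90, 4.62, 3.79 and 7.30. Groups 1 to 4 had a median log2 fold change of -0.05 over 10 tested members, with 5 above 0 and 1 called. All 6 members of groups 5 and 6 lay above 0 with a median of 1.23, and 3 were called. In groups 7 to 10 all 10 tested members lay above 0, with a median of 2.64 and 5 called. The count filter favoured values above 0 for *Hoxa10*, *Hoxc8*, *Hoxc9* and *Hoxc10* of these, and for *Hoxa6* and *Hoxc6* of group 6. Its part in the medians was not tested. Of the 9 members of groups 11 to 13 only *Hoxa13* was tested, at 0.22 (SE 0.33, adjusted p = 1.00). The 2 genotypes, whose libraries are separate, gave medians of -0.17, 1.54 and 2.48 (GFPiSMC) and 0.14, 0.87 and 2.54 (Tgfbr1/2iSMCKO) for groups 1 to 4, 5 and 6, and 7 to 10. Medians over both genotypes and in Tgfbr1/2iSMCKO are the same when *Hoxc10*, at 0 in one group, is given a floor of 3 counts there. *Hoxc10* lies above these medians either way, so the change could not move them and is no test of them.

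**Figure D2:**
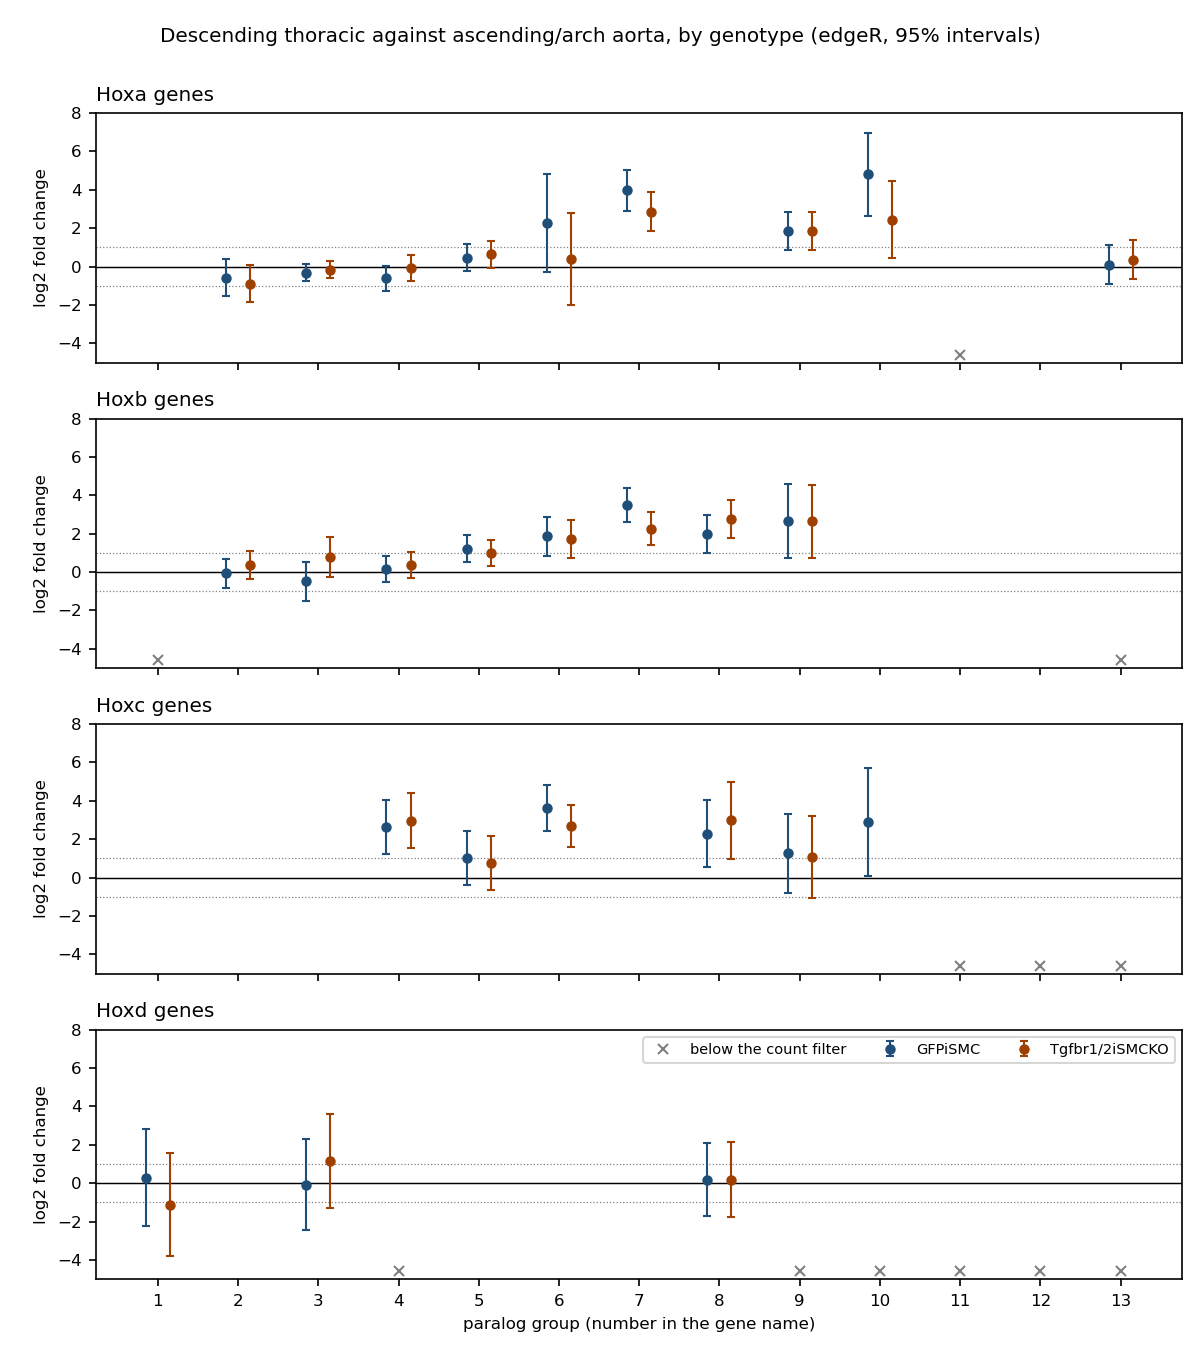
Log2 fold change of descending over ascending/arch aorta (vertical axis) against paralog group (horizontal axis), with 1 panel per cluster, for GFPiSMC (blue) and Tgfbr1/2iSMCKO (brown); bars are 95% intervals from edgeR, dotted lines mark 2-fold and crosses mark members below the count filter. *Hoxc10* in Tgfbr1/2iSMCKO is left out because a group has no counts, and 1 other tested member is not drawn. Medians run from -0.17 and 0.14 in groups 1 to 4 to 2.48 and 2.54 in groups 7 to 10. The latter include members that passed the count filter only with their descending libraries.

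The smallest adjusted p-values were those of group 7. *Hoxa7*, which helps to pattern the thoracic region, was at 6.05, 6.39 and 3.88 CPM in GFPiSMC ascending/arch and 84.2, 106 and 68.1 CPM in GFPiSMC descending libraries. In Tgfbr1/2iSMCKO it was at 2.95, 15.0 and 11.4 CPM in ascending/arch and 71.1, 59.6 and 82.4 CPM in descending libraries. The lowest descending library was more than 3 times the highest ascending/arch library. Descending over ascending/arch, the log2 fold change reached 3.42 (SE 0.34, adjusted p = 0.000362) over both genotypes, or 10.7-fold. Within genotypes it was 3.98 (SE 0.49, adjusted p = 0.00349) in GFPiSMC and 2.86 (SE 0.47, adjusted p = 0.0409) in Tgfbr1/2iSMCKO. The call in Tgfbr1/2iSMCKO alone was lost on leaving out any 1 of the 6 replicate numbers, and the 3 GFPiSMC numbers had the same effect on the GFPiSMC call.

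*Hoxb7*, the Hoxb counterpart and also a thoracic gene, was at 7.19, 4.50 and 2.89 CPM in GFPiSMC ascending/arch and 59.3, 53.4 and 52.1 CPM in GFPiSMC descending libraries. In Tgfbr1/2iSMCKO the values were 5.63, 15.9 and 15.6 CPM in ascending/arch and 59.1, 53.1 and 66.9 CPM in descending libraries. Segments did not overlap in either genotype. The segment difference was 2.88 (SE 0.29, adjusted p = 0.000362) on the log2 scale over both genotypes. It was 3.50 (SE 0.41, adjusted p = 0.00278) in GFPiSMC, a call lost without GFPiSMC replicate 2 (adjusted p = 0.0736), and 2.27 (SE 0.39, adjusted p = 0.0591) in Tgfbr1/2iSMCKO, which was not called.

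*Hoxb8*, linked to neural and blood cell development, was lower in level, and its segments did not overlap either. GFPiSMC libraries had 0.770, 0.446 and 0.744 CPM in ascending/arch and 2.11, 2.80 and 2.93 CPM in descending aorta. Tgfbr1/2iSMCKO libraries had 0.378, 0.679 and 1.35 CPM and 5.63, 4.74 and 6.17 CPM. All 6 descending libraries exceeded all 6 ascending/arch libraries. Over both genotypes the segment difference came to 2.38 (SE 0.33, adjusted p = 0.00359) on the log2 scale, and it was 2.00 (SE 0.46, adjusted p = 0.133) in GFPiSMC and 2.77 (SE 0.46, adjusted p = 0.0511) in Tgfbr1/2iSMCKO.

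*Hoxa9*, a regulator of blood progenitors and posterior identity, was at 1.65, 2.37 and 1.65 CPM and 6.87, 4.10 and 9.88 CPM in GFPiSMC ascending/arch and descending libraries. Its Tgfbr1/2iSMCKO values were 2.57, 2.14 and 0.902 CPM and 5.76, 5.36 and 9.17 CPM. The segments were separate in both genotypes. The log2 fold change was 1.87 (SE 0.32, adjusted p = 0.0150) over both genotypes, 1.87 in GFPiSMC and 1.86 in Tgfbr1/2iSMCKO. The last 2 values were not called on their own.

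*Hoxa10*, which patterns the lumbar region and the uterus, was near 0 in ascending/arch libraries, at 0.403, 0 and 0.248 CPM in GFPiSMC and 0.446, 0.194 and 0.161 CPM in Tgfbr1/2iSMCKO. Descending libraries had 9.09, 2.35 and 6.99 CPM in GFPiSMC and 0.414, 1.28 and 2.73 CPM in Tgfbr1/2iSMCKO. Segments were separate in GFPiSMC but overlapped in Tgfbr1/2iSMCKO. The log2 fold change over both genotypes was 3.62 (SE 0.67, adjusted p = 0.0246), with a 95% interval from 2.16 to 5.09. This call rested on 17 and 22 counts summed over the ascending/arch libraries of the 2 genotypes.

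In groups 5 and 6, *Hoxb6*, a gene of thoracic and forelimb regions, was at 13.2, 6.49 and 4.01 CPM in GFPiSMC ascending/arch and 29.6, 34.2 and 22.1 CPM in descending libraries. Tgfbr1/2iSMCKO libraries had 9.92, 11.2 and 18.8 CPM against 47.9, 23.2 and 59.1 CPM. The segments did not overlap, and the log2 fold change over both genotypes was 1.78 (SE 0.32, adjusted p = 0.0210). *Hoxb5*, which acts in enteric neural crest and vascular progenitors, was at 14.4, 15.8 and 10.7 CPM and 34.3, 35.9 and 25.3 CPM in GFPiSMC. Its Tgfbr1/2iSMCKO values were 12.8, 16.1 and 29.6 CPM and 42.6, 29.2 and 45.1 CPM. Ascending/arch library 3 of Tgfbr1/2iSMCKO exceeded descending library 2, so the segments overlapped in that genotype. Its log2 fold change over both genotypes was 1.11 (SE 0.23, adjusted p = 0.0435), and the call was lost on leaving out any replicate number but Tgfbr1/2iSMCKO 3.

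The Hoxc genes were low, and 2 of them were called. *Hoxc6*, which patterns thoracic segments, had 0.147, 0.137 and 0.0826 CPM in GFPiSMC ascending/arch and 1.15, 1.23 and 2.33 CPM in descending libraries. Tgfbr1/2iSMCKO libraries had 0.343, 0.146 and 0.387 CPM against 2.15, 1.48 and 2.23 CPM. The segments were separate in both genotypes although ascending/arch libraries held only 10 and 25 counts in all. The segment difference was 3.16 (SE 0.38, adjusted p = 0.00116) on the log2 scale over both genotypes and 3.62 (SE 0.55, adjusted p = 0.0146) in GFPiSMC. The GFPiSMC call held in 8 of 16 alternatives. It was lost with limma-voom, a replicate block, the test against a 2-fold change and the genotype fitted alone. Leaving out any 1 GFPiSMC replicate number or Tgfbr1/2iSMCKO 1 also lost it. In Tgfbr1/2iSMCKO it was 2.70 (SE 0.51, adjusted p = 0.0843), not called.

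*Hoxc4*, a gene of neck and upper thoracic levels and the only called member of groups 1 to 4, had 0.440, 0.824 and 1.12 CPM in GFPiSMC ascending/arch and 6.29, 7.68 and 1.08 CPM in descending libraries. In Tgfbr1/2iSMCKO it had 0.583, 0.728 and 0.773 CPM against 4.72, 3.38 and 8.26 CPM. GFPiSMC descending library 3 stayed within the ascending/arch range, and the segments were separate only in Tgfbr1/2iSMCKO. The log2 fold change over both genotypes was 2.81 (SE 0.46, adjusted p = 0.0114).

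Calls over both genotypes for *Hoxa7*, *Hoxb7*, *Hoxb8* and *Hoxc6* were held in every alternative that tested them, including each set without a replicate number. The other 5 were each lost in at least 5 of 16 alternatives, and the count of called members ran from 5 to 8 without a replicate number. *Hoxa9* was lost without any number but GFPiSMC 2, *Hoxa10* without GFPiSMC 1 or 3 or Tgfbr1/2iSMCKO 2 or 3, *Hoxc4* without GFPiSMC 1 or 2 or Tgfbr1/2iSMCKO 1 or 3, and *Hoxb6* without GFPiSMC 2 or 3 or Tgfbr1/2iSMCKO 1 or 3.

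**Figure D3:**
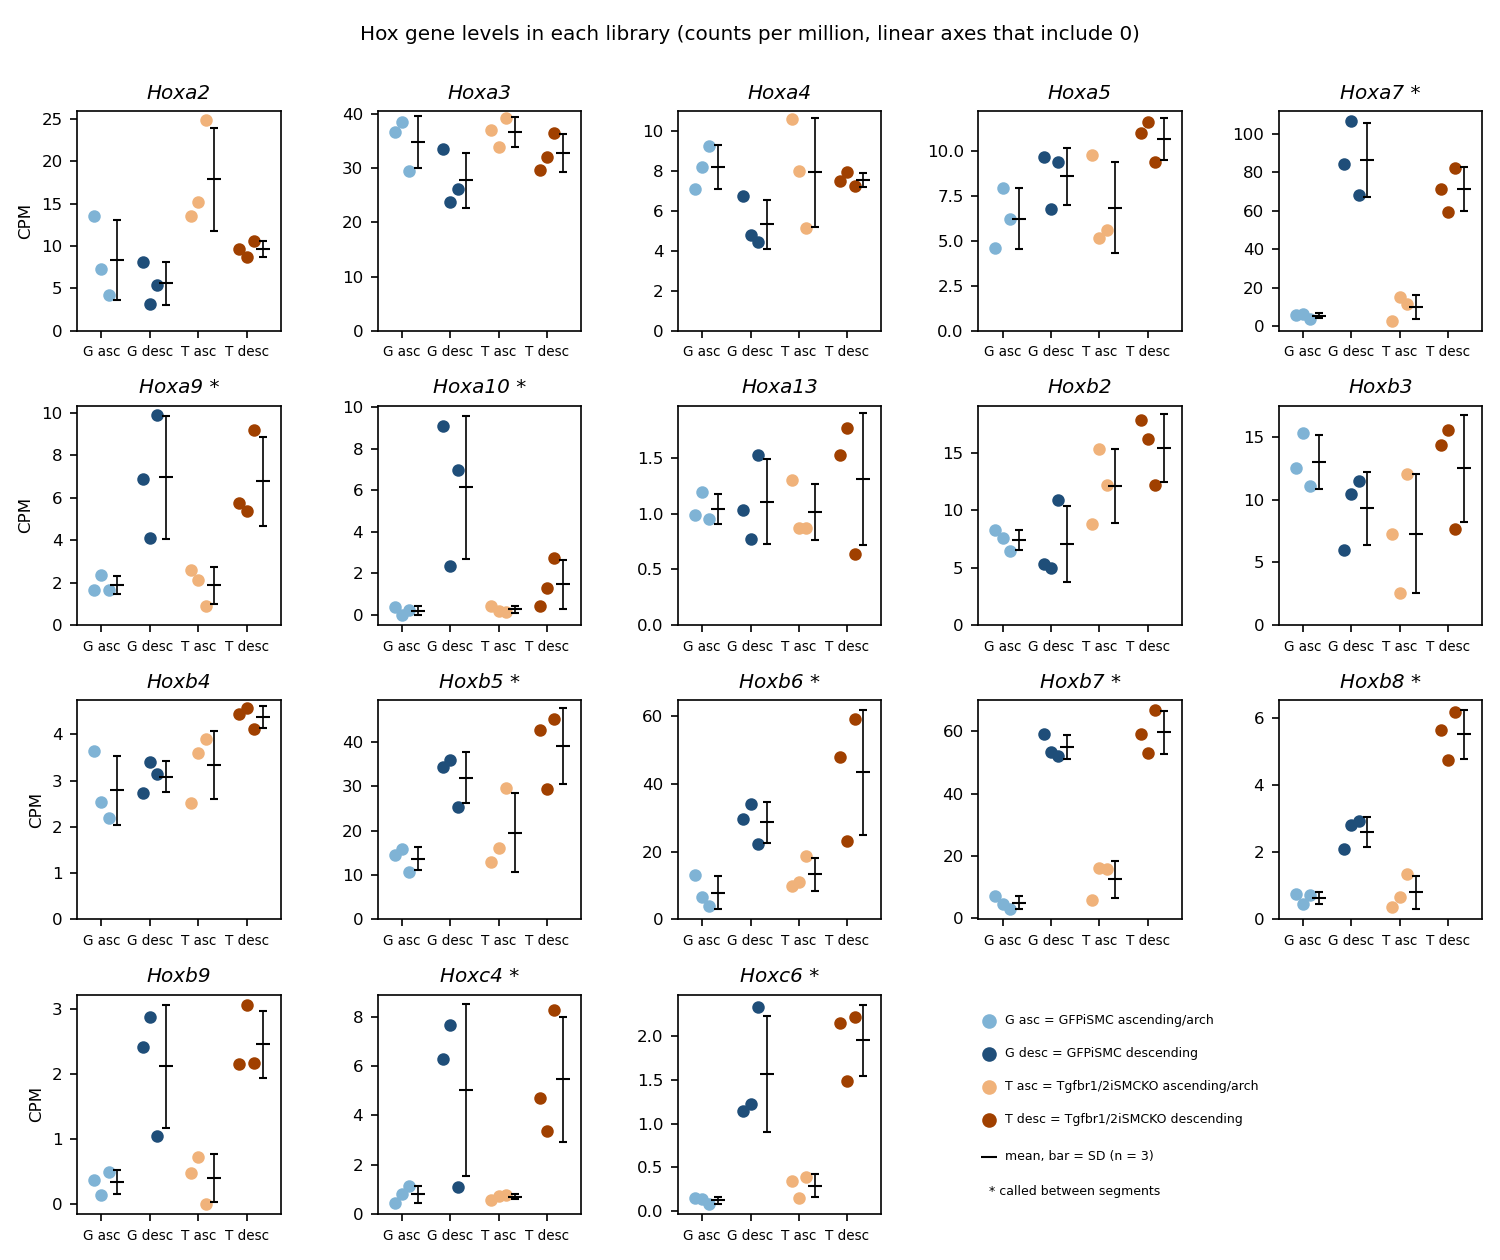
Level of 18 Hox genes that averaged at least 1 CPM or were called, in CPM on linear axes that include 0, for the 4 groups named in the key; points are libraries and bars give the mean and SD of 3 libraries, and asterisks mark members called between segments over both genotypes. *Hoxa7* lies at 2.95 to 15.0 CPM in ascending/arch and 59.6 to 106 CPM in descending libraries, while *Hoxa3* spans 29.5 to 39.4 and 23.7 to 36.6 CPM.

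The 3 posterior members *Hoxb9*, *Hoxc8* and *Hoxc10* did not pass the test over both genotypes, although most descending libraries lay above the ascending/arch libraries. *Hoxb9*, a gene of the rib cage, had 0.367, 0.137 and 0.496 CPM in ascending/arch against 2.42, 2.87 and 1.04 CPM in descending libraries of GFPiSMC, and 0.480, 0.728 and 0 CPM against 2.15, 3.05 and 2.16 CPM in Tgfbr1/2iSMCKO. All descending libraries exceeded all ascending/arch libraries, at a log2 difference of 2.65 (SE 0.62, adjusted p = 0.0985). *Hoxc8*, a gene of lower thoracic segments, had 0.147, 0.961 and 0.124 CPM in ascending/arch against 2.19, 1.86 and 2.13 CPM in descending libraries of GFPiSMC, and 0.0343, 0.0971 and 0.129 CPM against 0.994, 0.165 and 0.978 CPM in Tgfbr1/2iSMCKO. Segments were separate within each genotype, at a log2 difference of 2.64 (SE 0.62, adjusted p = 0.0953). *Hoxc10*, a lumbar and hindlimb gene, had 0.403, 0.309 and 0.124 CPM in ascending/arch against 2.69, 0 and 3.66 CPM in descending libraries of GFPiSMC, where descending library 2 had none. In Tgfbr1/2iSMCKO it had no count in the 3 ascending/arch libraries and 0.166, 0.371 and 0.810 CPM in descending libraries. Against a floor of 3 counts over the empty group the difference was 12.8-fold, a value that leaves out the spread between libraries. DESeq2 called all 3 of these members over both genotypes.

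Library values were also compared directly. All 6 descending libraries lay above all 6 ascending/arch libraries for 7 of the 27 tested members (*Hoxa7*, *Hoxa9*, *Hoxb6* to *Hoxb9* and *Hoxc6*), against 0.211% of all tested genes, and for no member below them (0.6%). In GFPiSMC 11 members were separate in this direction (5.19% of all tested genes), and in Tgfbr1/2iSMCKO 11 (3.15%). In both genotypes 8 members were separate, the 7 above and *Hoxc8*. Of the members counted here, *Hoxa6*, *Hoxa10*, *Hoxc6*, *Hoxc8* and *Hoxc10* passed the count filter only with their descending libraries. In the opposite direction only *Hoxa4* in GFPiSMC (7.8% of all tested genes) and *Hoxa2* in Tgfbr1/2iSMCKO (4.08%) were separate.

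**Figure D4:**
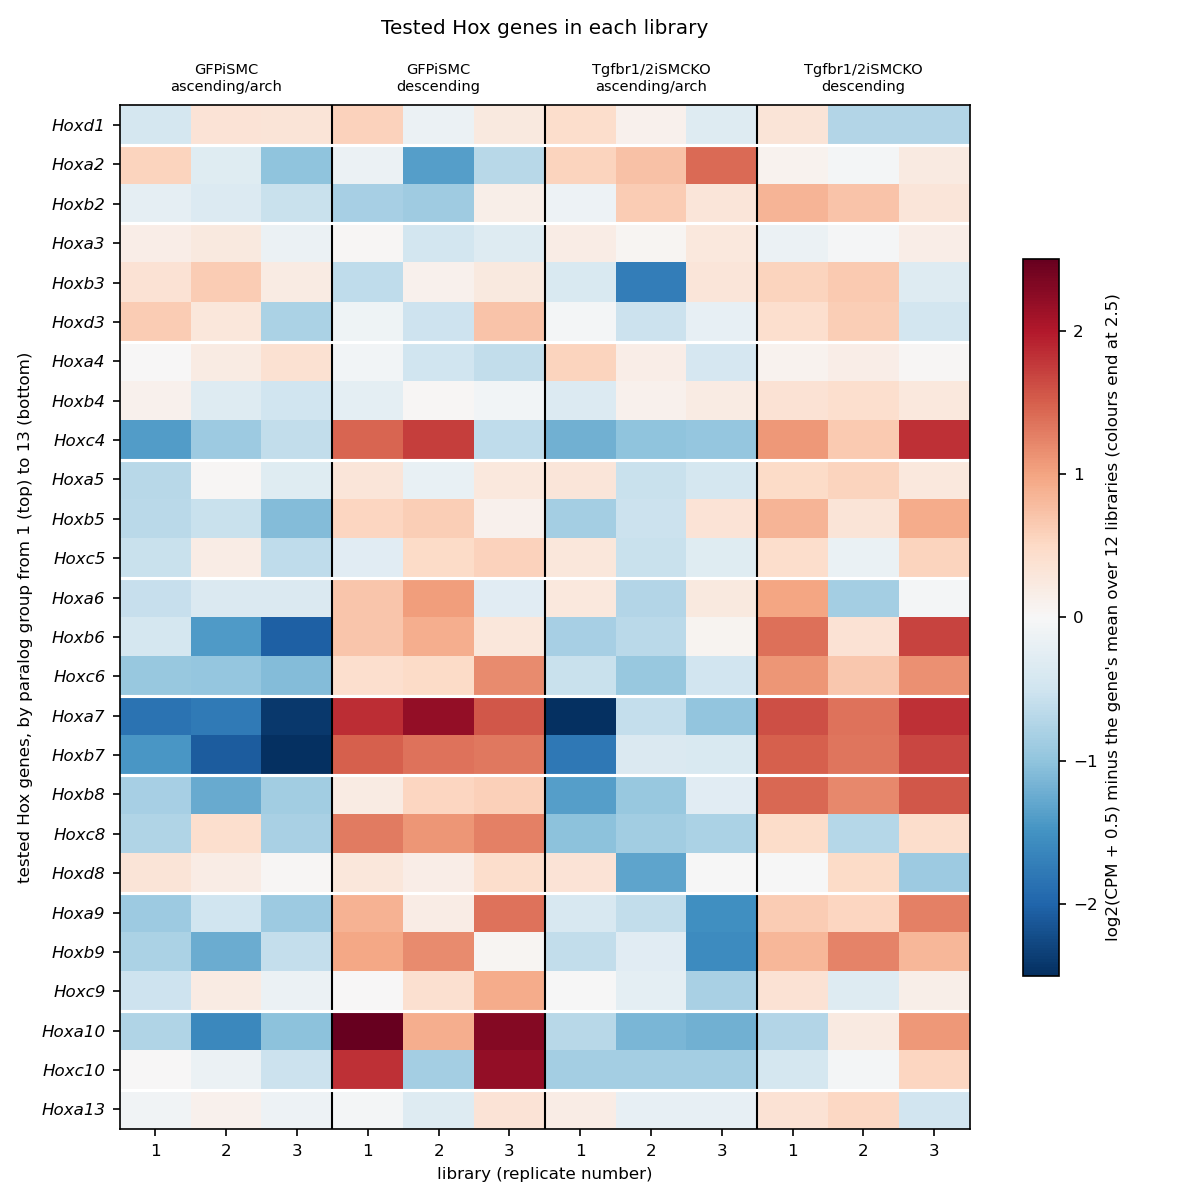
Level of 26 of the 27 tested Hox genes (rows, ordered by paralog group) in each of the 12 libraries (columns), as log2(CPM + 0.5) minus the gene's mean over all libraries; red is above and blue below the mean, and colours end at 2.5. Descending columns are redder than ascending/arch columns for *Hoxa7*, *Hoxa9*, *Hoxb6* to *Hoxb9* and *Hoxc6*, the 7 members separate over all 12 libraries.

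Anterior members were expressed in both segments and none of them was called lower in the descending aorta. *Hoxa3*, which shapes pharyngeal arch derivatives such as the carotid artery and thymus, had 36.7, 38.6 and 29.5 CPM in ascending/arch against 33.5, 23.7 and 26.1 CPM in descending libraries of GFPiSMC, and 37.0, 33.9 and 39.4 CPM against 29.6, 32.1 and 36.6 CPM in Tgfbr1/2iSMCKO. The segments overlapped, and the segment difference of -0.25 (SE 0.14, adjusted p = 0.989) on the log2 scale had a 95% interval from -0.56 to 0.06, within 2-fold either way. *Hoxa2*, a gene of pharyngeal arch patterning, had 13.5, 7.24 and 4.25 CPM in ascending/arch against 8.13, 3.15 and 5.42 CPM in descending libraries of GFPiSMC, and 13.6, 15.2 and 24.8 CPM against 9.69, 8.70 and 10.6 CPM in Tgfbr1/2iSMCKO. It was the 1 member lower in the descending aorta at an unadjusted p under 0.05, at -0.74 (SE 0.31, adjusted p = 0.744), which did not pass.

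*Hoxa4*, a cervical gene, had 7.08, 8.20 and 9.25 CPM in ascending/arch against 6.71, 4.80 and 4.42 CPM in descending libraries of GFPiSMC, and 10.6, 8.01 and 5.15 CPM against 7.50, 7.92 and 7.22 CPM in Tgfbr1/2iSMCKO. Its segment difference over both genotypes came to -0.35 (SE 0.21, adjusted p = 1.00) on the log2 scale, which did not pass. *Hoxa5*, required for lung and cervical development, had 4.58, 7.93 and 6.20 CPM in ascending/arch against 9.67, 6.77 and 9.36 CPM in descending libraries of GFPiSMC, and 9.75, 5.14 and 5.61 CPM against 11.0, 11.6 and 9.38 CPM in Tgfbr1/2iSMCKO. The segments overlapped, with a log2 fold change over both genotypes of 0.55 (SE 0.23) and an adjusted p of 0.710.

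Anterior Hoxb members were not called. *Hoxb2*, a hindbrain gene, had 8.25, 7.55 and 6.49 CPM in ascending/arch against 5.29, 5.01 and 10.9 CPM in descending libraries of GFPiSMC, and 8.85, 15.3 and 12.2 CPM against 17.9, 16.2 and 12.2 CPM in Tgfbr1/2iSMCKO. *Hoxb3*, with its large antisense overlap, had 12.5, 15.3 and 11.1 CPM in ascending/arch against 6.02, 10.4 and 11.5 CPM in descending libraries of GFPiSMC, and 7.28, 2.57 and 12.0 CPM against 14.4, 15.5 and 7.62 CPM in Tgfbr1/2iSMCKO. *Hoxb4*, known for its role in blood stem cells, had 3.63, 2.54 and 2.19 CPM in ascending/arch against 2.72, 3.40 and 3.13 CPM in descending libraries of GFPiSMC, and 2.51, 3.59 and 3.90 CPM against 4.43, 4.58 and 4.12 CPM in Tgfbr1/2iSMCKO. Their log2 fold changes over both genotypes were 0.14, 0.15 and 0.27, and their 95% intervals all lay between -0.58 and 0.87.

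At the posterior end, *Hoxa13*, a gene of the limb tips and urogenital tract, had 0.990, 1.20 and 0.950 CPM in ascending/arch against 1.04, 0.771 and 1.53 CPM in descending libraries of GFPiSMC, and 1.30, 0.873 and 0.870 CPM against 1.53, 1.77 and 0.641 CPM in Tgfbr1/2iSMCKO. The segments overlapped. The remaining 6 tested members averaged under 1 CPM. Their log2 fold changes over both genotypes were 1.34 for *Hoxa6*, 0.89 for *Hoxc5*, 1.16 for *Hoxc9*, -0.42 for *Hoxd1*, 0.54 for *Hoxd3* and 0.18 for *Hoxd8*, with SEs from 0.46 to 0.84. None was called.

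Within each genotype, fewer members passed. In GFPiSMC 3 of 27 were called, all higher in the descending aorta (*Hoxa7*, *Hoxb7*, *Hoxc6*), against 0.0627% of all tested genes higher and 0.309% lower. In Tgfbr1/2iSMCKO 1 was called (*Hoxa7*), against 0.0179% higher and 0.0896% lower. At an unadjusted p under 0.05 both genotypes had 12 members higher and none lower, against 2.5% of tested genes higher and 3.47% lower in GFPiSMC, and 1.47% and 2.2% in Tgfbr1/2iSMCKO. With DESeq2 the counts were 9 in GFPiSMC and 7 in Tgfbr1/2iSMCKO, where it called 256 and 146 of the 22320 genes. Without 1 replicate number the edgeR counts were 0 to 3 and 0.

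Some fibroblast and cardiomyocyte markers were lower in the descending aorta over both genotypes. The 7 fibroblast markers summed to 73.1 to 227 CPM in ascending/arch and 15.2 to 72.1 CPM in descending libraries, and *Dcn* and *Lum* of the 7 were called lower in the descending aorta, while *Serpinf1* was at 0.80 (SE 0.29, adjusted p = 0.568) on the log2 scale. The 5 cardiomyocyte markers summed to 18.5 to 176 CPM in ascending/arch and 8.32 to 34.9 CPM in descending libraries, ranges that overlapped, with *Tnnt2* alone of the 5 called lower, *Myl7* at 0 in every library and *Myh6* at 0.797 to 1.37 CPM in the group means. Smooth muscle markers summed to 38750 to 48343 CPM and 39957 to 53498 CPM, and *Pecam1*, an endothelial marker, averaged 66.7 to 83.2 CPM in the groups while *Cdh5* averaged 0.0804 to 1.63. Summed Schwann and neuronal, adipocyte, leukocyte, mesothelial and skeletal muscle markers reached at most 6.27, 1.36, 17.7, 2.93 and 26.4 CPM in a library. The part of other cell types in the Hox differences was not tested.

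For the comparisons that involve genotype, the targeted receptor genes were examined first. *Tgfbr2* averaged 113 ± 12.8 and 98.6 ± 3.54 CPM in ascending/arch and 99.3 ± 11.3 and 79.4 ± 10.2 CPM in descending libraries of GFPiSMC and Tgfbr1/2iSMCKO (SD, n = 3 each). *Tgfbr1* averaged 259 ± 29.0 and 246 ± 48.8 CPM in ascending/arch and 211 ± 23.6 and 257 ± 15.8 CPM in descending libraries. With receptor loss *Tgfbr2* differed by -0.26 (SE 0.11, adjusted p = 0.263) on the log2 scale and *Tgfbr1* by 0.10 (SE 0.12, adjusted p = 0.773). Counts over whole genes do not measure the deleted exons, so they do not check the labels.

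Whether TGF-β receptor loss altered the segment difference was asked with the interaction of genotype and segment. No member was called, and edgeR called none of the 22320 genes (0.0% background), while 2.95% of all genes had an unadjusted p under 0.05 and DESeq2 called 8 genes with no Hox gene among them. One Hox gene, *Hoxb7*, had an unadjusted p under 0.05 (0.0403). The segment difference in Tgfbr1/2iSMCKO minus that in GFPiSMC was -1.23 on the log2 scale (95% interval -2.39 to -0.06), with ascending/arch means of 4.86 ± 2.17 and 12.4 ± 5.86 CPM and descending means of 54.9 ± 3.82 and 59.7 ± 6.93 CPM in GFPiSMC and Tgfbr1/2iSMCKO (SD, n = 3 each). For *Hoxa7* the corresponding value was -1.12 (95% interval -2.47 to 0.23), for *Hoxa10* -2.37 (95% interval -5.20 to 0.46) and for *Hoxb3* 1.25 (95% interval -0.20 to 2.71). These intervals reach beyond a 2-fold alteration, so the design did not show that the segment difference was alike in the 2 genotypes.

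No Hox gene was called between genotypes over both segments, against 1.05% of all tested genes higher and 1.61% lower in Tgfbr1/2iSMCKO. At an unadjusted p under 0.05, 4 members were higher and 2 lower in Tgfbr1/2iSMCKO, against 7.64% and 8.53% of all genes, and for no member were the 6 libraries of one genotype all above those of the other (1.51% of all genes higher and 2.89% lower). The 4 were *Hoxb2* (0.92, SE 0.24, adjusted p = 0.0510), *Hoxa2* (0.95, SE 0.31, adjusted p = 0.124), *Hoxb7* (0.73, SE 0.27, adjusted p = 0.174) and *Hoxb8* (0.69, SE 0.32, adjusted p = 0.304). Of the members lower in Tgfbr1/2iSMCKO, *Hoxc8* was at -1.86 (SE 0.61, adjusted p = 0.124). The other was *Hoxc10*, with 23 and 161 counts in GFPiSMC ascending/arch and descending libraries against 0 and 37 in Tgfbr1/2iSMCKO, and an adjusted p of 0.119. In ascending/arch it was 7.68-fold lower against a floor of 3 counts over the group, which leaves out the spread between libraries. DESeq2 called *Hoxc8* and *Hoxc10* lower, and *Hoxb2* was called when libraries were scaled by their size alone, a scaling that moved the median of all genes from 0.04 to 0.17. Cardiomyocyte markers summed to 66.7 to 176 CPM in ascending/arch libraries of Tgfbr1/2iSMCKO against 18.5 to 30.5 CPM in GFPiSMC, and their part in these values was not tested.

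Genes that act with, lie among or surround the Hox genes were examined next, from lists of cofactors, cluster RNA genes, regulators and neighbours. Of the 8 tested cluster RNA genes 1 was called over both genotypes, *Hoxaas3*, which is transcribed from the opposite strand of the Hoxa cluster. It averaged 5.11 ± 0.211 CPM in GFPiSMC ascending/arch and 16.8 ± 0.682 CPM in descending libraries, and 5.88 ± 1.83 and 20.2 ± 3.44 CPM in Tgfbr1/2iSMCKO (SD, n = 3 each). The segments did not overlap, with 3.83 to 7.38 CPM in ascending/arch and 16.1 to 23.6 CPM in descending libraries. The log2 fold change was 1.75 (SE 0.19, adjusted p = 0.000733) over both genotypes, 1.71 (SE 0.27, adjusted p = 0.0183) in GFPiSMC and 1.78 (SE 0.27, adjusted p = 0.0316) in Tgfbr1/2iSMCKO. Since its exons overlap those of *Hoxa7* and strand was not marked, reads of *Hoxaas3* and *Hoxa7* cannot be told apart there. *Hoxb5os*, beside *Hoxb5*, was not called (0.85, SE 0.22, adjusted p = 0.165).

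None of the 11 TALE genes, which encode homeodomain cofactors of Hox proteins, was called between segments over both genotypes by edgeR or DESeq2, none had an unadjusted p under 0.05, and their median log2 fold change was 0.02. *Pbx2* (0.94, SE 0.47, adjusted p = 0.943) and *Meis2* (-0.33, SE 0.17, adjusted p = 0.960) had the smallest p-values. Of the 26 Polycomb and Trithorax genes, which silence or sustain Hox clusters, none was called over both genotypes by either tool, 1 had an unadjusted p under 0.05, the median was 0.03, and *Rnf2* was at -0.17 (SE 0.13, adjusted p = 1.00). Among 12 tested genes of retinoic acid signalling and Cdx factors, which set Hox domains in the embryo, none was called over both genotypes by either tool or had an unadjusted p under 0.05 there, with a median of 0.10, and *Rxra* (0.42, SE 0.24, adjusted p = 0.988) and *Rarg* (0.66, SE 0.62, adjusted p = 1.00) led.

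The 29 tested genes within 300000 bases of a cluster had a median of 0.03 over both genotypes, none was called by either tool and 1 had an unadjusted p under 0.05. *Skap2*, next to the Hoxa cluster, was at 0.45 (SE 0.18, adjusted p = 0.688), and *Gm53* at 0.79 (SE 0.66, adjusted p = 1.00). Between genotypes edgeR called no gene of these lists, against 1.05% of all tested genes higher and 1.61% lower in Tgfbr1/2iSMCKO. At an unadjusted p under 0.05, 9 list genes were higher and 2 lower, against 7.64% and 8.53% of all tested genes. DESeq2 called 1, the antisense gene *5730596B20Rik* of the Hoxa cluster. *Ube2z* (-0.68, SE 0.16, adjusted p = 0.0338) and *Hibadh* (0.45, SE 0.12, adjusted p = 0.0452), both near a cluster, had adjusted p-values under 0.05 but differed by less than 2-fold.

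**Figure D5:**
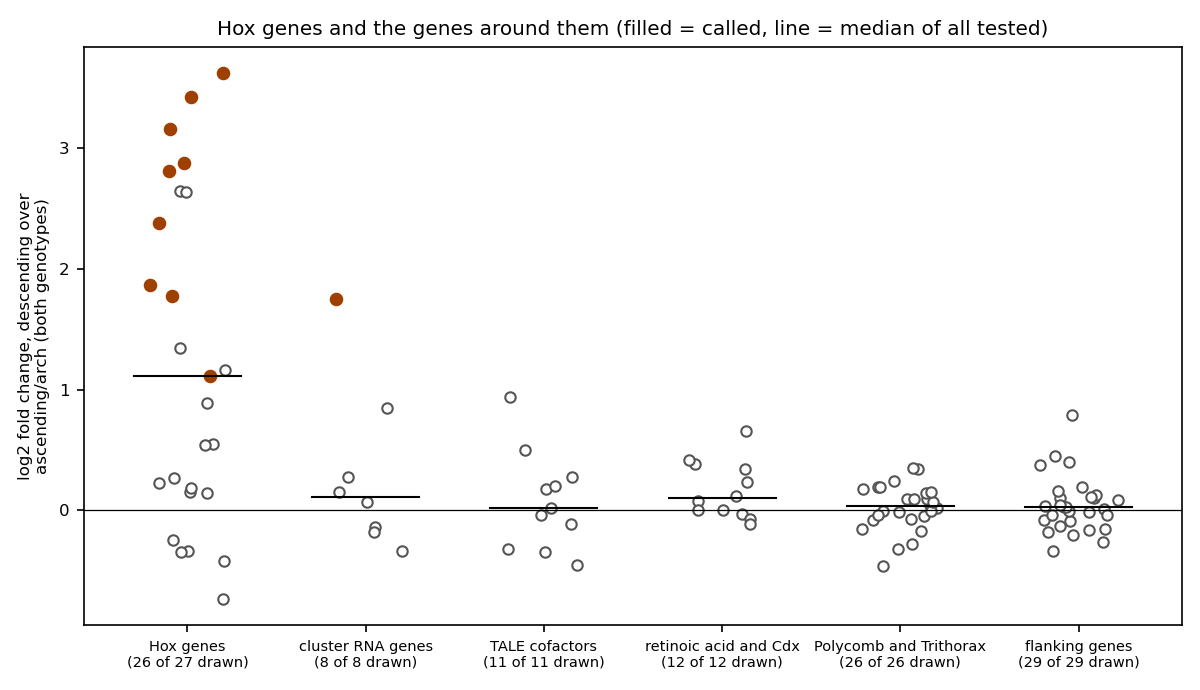
Log2 fold change of descending over ascending/arch aorta over both genotypes (vertical axis) for the tested Hox genes and 5 lists of related genes (horizontal axis, with the number drawn of the number tested); filled points are called genes and each line is the median of the list's tested genes. The Hox median is 1.11 and the medians of the 5 lists lie between 0.02 and 0.11; *Hoxc10* is not drawn because a group has no counts.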

How the data were processed

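Bulk RNA-seq reads were, per the labels and the study's methods, trimmed, mapped with HISAT2 to GRCm38 (mm10) and quantified by StringTie against GENCODE M15 gene models. The deposited values were whole-number counts per gene, and how the authors obtained them from StringTie is not given in the sources used here. A count of 2 occurred more often (32279 times) than a count of 1 (22574), so a count may not stand for 1 sequenced fragment. GENCODE M21 (same build) gave symbols to 52403 of 52636 identifiers after dropping version suffixes.

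Counts were tested with edgeR 4.0.16 (R 4.3.3): TMM factors, filterByExpr on 4 groups (22320 genes kept), quasi-likelihood fit of 4 group means over all 12 libraries, Benjamini-Hochberg adjustment. A gene was called at adjusted p < 0.05 and beyond 2-fold, the study's thresholds. The study itself used DESeq2, here an alternative (1.42.0). In all, 17 alternatives were run, among them limma 3.58.1, other scaling, filters and leaving out replicate numbers. Levels are CPM, and precision was limited by 3 libraries per group.

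Named were all members with at least 1 CPM on average or called, and of each list the called genes and the 2 with the smallest p. Others were named after their values were seen, and some genes and sequences that the rule covers are not reported here. Members and lists were chosen with earlier results of these data known. Promoter sequences are from RefSeq (GRCm38.p6). Protein sequences were not used here.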

Additional observations from a re-analysis of the deposited data

How the results depend on the processing

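Over both genotypes, the count of Hox genes called between segments (9) was 12 with DESeq2. It was 10 with a filter of 1 count and with counts divided by 2. A mean of at least 50 counts left 16 members to test, without *Hoxc6*, and 8 were called. The count was 4 when edgeR tested against a 2-fold change and 5 to 8 without 1 replicate number. In GFPiSMC the count (3) was 9 with DESeq2 and 0 to 3 without 1 replicate number. In Tgfbr1/2iSMCKO the count (1) was 7 with DESeq2, 3 with limma-voom, 2 with RLE factors, 3 with library size scaling, 3 with a filter of 1 count, 3 with a mean of at least 50 counts, 3 with counts divided by 2, and 0 when tested against a 2-fold change, when this genotype was fitted alone, and without any 1 replicate number (0 to 0). Between genotypes the count (0) was 2 with DESeq2, 1 with library size scaling, and 0 to 1 without 1 replicate number (*Hoxa2*, *Hoxc10* or *Hoxb2*). The interaction gave 0 Hox genes in all 16 alternatives that could be fitted. Over all genes, DESeq2 called 289 genes between segments over both genotypes (166 in edgeR) and 824 between genotypes (594). The cause of these shifts was not tested.

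Of the 21 members followed one by one between segments, 5 changed direction in some comparison, none of them called there, each on leaving out 1 replicate number. Ranges of the log2 fold change of descending over ascending/arch were, over both genotypes, -0.13 to 0.27 for *Hoxb2* and -0.15 to 0.56 for *Hoxb3*. In GFPiSMC they were -0.27 to 0.40 for *Hoxa13*, -0.61 to 0.19 for *Hoxb2* and -0.00470 to 0.48 for *Hoxb4*. In Tgfbr1/2iSMCKO they were -0.00733 to 0.59 for *Hoxa13* and -0.28 to 0.20 for *Hoxa4*.

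Libraries of the 2 segments share replicate numbers, but no source used here says that a number marks 1 mouse. Correlations of deviations from the group means (9356 genes) between same-numbered segments were 0.18, -0.25 and 0.03 in GFPiSMC and 0.06, 0.38 and 0.67 in Tgfbr1/2iSMCKO, so the numbers were not taken to pair the libraries. With a replicate block, 6 members were called over both genotypes, 2 in GFPiSMC and 0 in Tgfbr1/2iSMCKO, with *Hoxa9*, *Hoxa10* and *Hoxc4* not among the 6 and *Hoxc6* not among the 2.

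The 12 members below the filter were tested only with the filter of 1 count, where none was called, and low counts in ascending/arch libraries limited *Hoxa10*, *Hoxc6* and *Hoxc10*.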
